A study of Mus musculus with 6 samples.

Results

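Transcripts of 10 mouse genes for selenoproteins and selenium handling were followed in cells heterozygous for a floxed allele of Magoh: Sepp1, Sepw1, Gpx1, Gpx3, Gpx4, Txnrd1, Txnrd2, Sephs2, Selt and Selk (current symbols of the renamed ones: Selenop, Selenow, Selenot and Selenok). They were chosen by symbol from the 38561 genes of the deposited count table. The file lists 9 of the 10 under these symbols, and Selt under the clone name 2810407C02Rik, matched by its Ensembl identifier. The low level of Sepp1 in heterozygous cells was already known when they were chosen, so the genotype contrast of the 10 genes is a description. All 10 passed the filter on low counts that left 16495 genes.

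Selenoproteins carry selenocysteine, an amino acid written into the mRNA by TGA (UGA in the RNA), a codon that otherwise stops translation. A hairpin in the 3′ untranslated region and the proteins that bind it let the ribosome read through, and most selenoproteins are redox enzymes. When the codon is read as a stop upstream of an exon junction, the exon junction complex left at that junction can send the mRNA into nonsense-mediated decay. Magoh is a core protein of that complex.

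RNA was sequenced from 2 Magoh lox/+ libraries and 4 control libraries of the mouse medial ganglionic eminence (MGE), the part of the ventral forebrain that gives rise to many cortical interneurons. Heterozygous cells had the genotype Magoh lox/+; Nkx2.1-Cre; ROSAloxSTOPloxTdTomato, and controls carried the same Cre and reporter without the floxed allele, all on C57BL/6. Telencephalic cells were sorted at E11.5 by the red reporter, which marks cells in which Nkx2.1-Cre has acted, or their descendants. Whether a library is a single embryo or a pool is not stated in the labels. The spread behind any p-value is that of these 6 libraries. Each group holds libraries with and without Y-linked reads, so its libraries are not all repeats of a single sample. Part of the spread may still be technical.

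Depth was 41.95 and 49.2 M counts in the heterozygous libraries (M, the SI prefix mega) and 37.4 to 44.2 M in controls. Magoh itself stood at 57.1 and 48.6 CPM (counts per M counts, with library sizes scaled by TMM) in heterozygous cells, below the 63.6 to 118 CPM of controls. Heterozygous library 1 and control 2 had 0 reads of 4 Y-linked genes, and the other 4 libraries had 3453 to 4291. Xist was at most 0.549 CPM in those 4 libraries, and 111 and 94.2 CPM in heterozygous library 1 and control 2. In the same 2 libraries long genes were lower relative to short ones: the median log2 deviation of genes with 8000 nt or more of exon, minus that of genes under 1000 nt, was -0.26 in heterozygous library 1 and -0.56 in control 2, against 0.11 to 0.32 in the rest. MGE markers were present throughout, with 12 of 12 averaging at least 1 CPM.

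The selenocysteine codons of the 10 mRNAs are shown with 12 bases on either side, because these are the codons that can be read as stops. They are read from the GENCODE M21 transcripts (GRCm38), 5′ to 3′, with the TGA in capitals.
Sepp1, first TGA: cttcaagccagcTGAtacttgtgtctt
Sepp1, second TGA: cacttagagagcTGAgacaccacagca
Sepw1: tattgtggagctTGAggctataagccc
Gpx1: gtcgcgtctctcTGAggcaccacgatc
Gpx3: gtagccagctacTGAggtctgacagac
Gpx4: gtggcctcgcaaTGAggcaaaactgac
Selt: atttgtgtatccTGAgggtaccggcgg
Txnrd2: gtgactggttgcTGAggctaagtcacc
Txnrd1: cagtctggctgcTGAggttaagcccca
Selk: atggctggtggaTGAggaaggtaaatg
Sephs2: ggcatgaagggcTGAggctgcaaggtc
In 9 of the 10 mRNAs the bases GG follow the first TGA directly. Sepp1 differs, with TA there, and 0 of its 10 selenocysteine codons are followed by GG. Among 14 other annotated mouse selenoprotein mRNAs, 3 have GG after the first such codon.

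The place of the codon separates the 10 mRNAs into 2 sets. In 7 of them the first TGA ends more than 50 nt upstream of the last exon junction: 470 nt in Selt, 357 nt in Sepp1, 342 nt in Gpx4, 243 nt in Sepw1, 240 nt in Gpx3, 105 nt in Gpx1 and 83 nt in Txnrd2. Sepp1 is the exception in number, with 10 codons, of which 9 lie in its last exon. In Txnrd2 the codon ends 3 nt before the end of the coding sequence, so the annotated stop also lies upstream of the last junction. The other 3 lack an upstream position of this kind. In Txnrd1 the codon lies 63 nt downstream of the last junction, near the end of the coding sequence. In Selk it lies 5 nt upstream of that junction, and Sephs2 is annotated with a single exon and so has no junction.

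**Figure D1:**
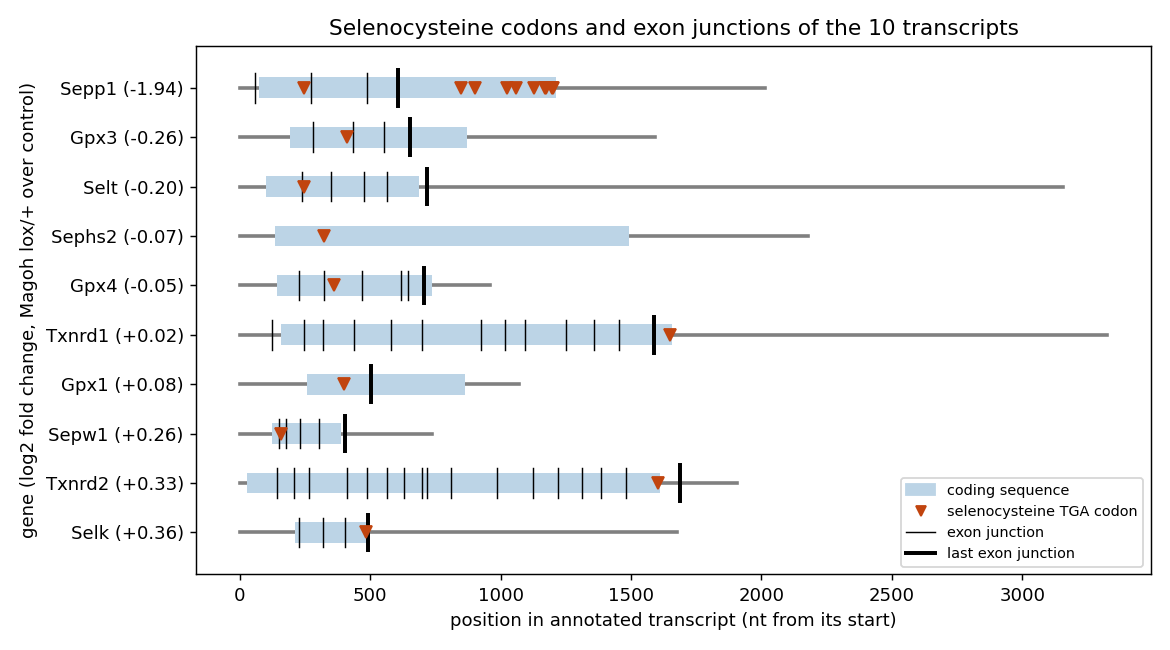
Annotated transcripts of the 10 genes, drawn to scale in nucleotides from the transcript start, with the coding sequence as a box, exon junctions as lines and selenocysteine codons as triangles. Genes run from Sepp1 (log2 fold change -1.94, Magoh lox/+ over control) at the top to Selk (0.36) at the bottom, and the first codon lies more than 50 nt upstream of the last junction in 7 of the 10, Sepp1 among them.

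Sepp1 showed the largest difference between genotypes of the 10, and its difference in means was over the control SD, as were those of Gpx3, Txnrd2 and Sephs2. Sepp1 (ENSMUSG00000064373; chromosome 15, 3268547 to 3280508, plus strand, GRCm38) encodes selenoprotein P, the secreted protein that carries selenium between cells. It had 13.6 and 16.9 CPM in heterozygous cells, against 38.0, 44.3, 69.6 and 81.6 CPM in controls 1 to 4. Both heterozygous libraries lay below every control, and the controls themselves spread over a wide range. In bulk RNA, fewer cells that express a gene and less of its RNA per cell cannot be told apart.

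The group means of Sepp1 were 15.2 ± 2.32 CPM in heterozygous cells (SD, n = 2) and 58.4 ± 20.6 CPM in controls (SD, n = 4). The heterozygous level was 0.261 of the control level, log2 fold change -1.94 ± 0.35 (SE). Between the 2 libraries without Y-linked reads the log2 difference was -1.70, and between heterozygous library 2 and controls 1, 3 and 4 it was -1.83. With length and GC trends taken out per library it was -1.83 ± 0.36 (SE). The annotated gene Ccdc152 overlaps 439 exonic bases of Sepp1 on the other strand, and it had 0 counts in each of the 6 libraries.

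**Figure D2:**
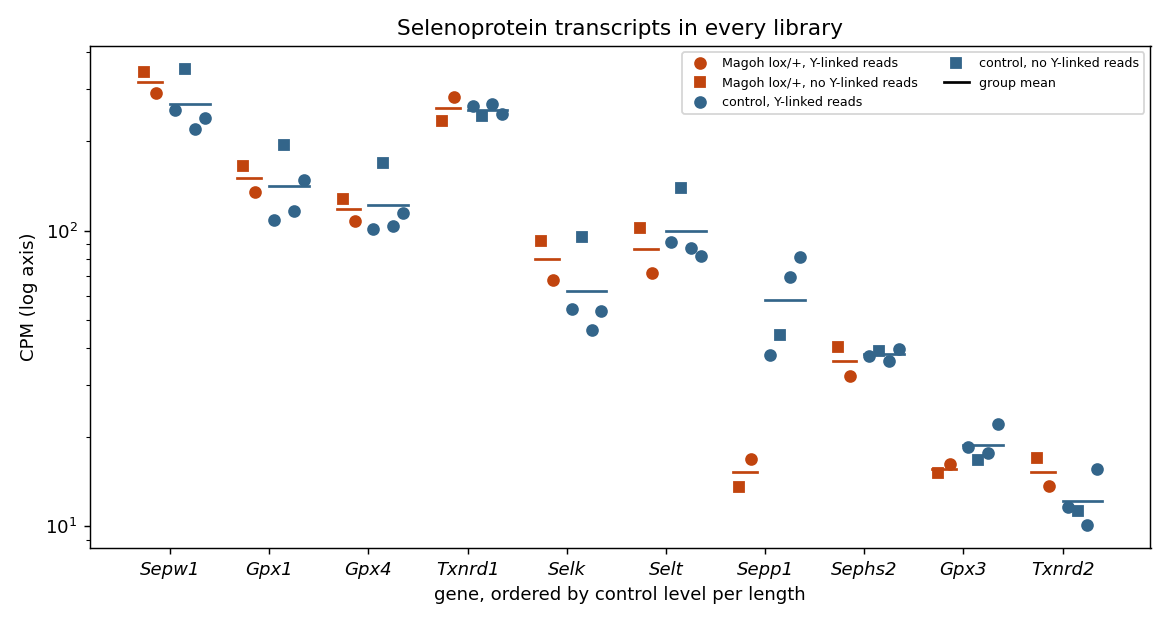
CPM of the 10 genes in every library on a log axis, Magoh lox/+ to the left of control, with the group mean as a bar and squares for libraries without Y-linked reads. Sepp1 at 13.6 and 16.9 CPM in heterozygous cells is set apart from its controls at 38.0 to 81.6 CPM, while the points of the other genes lie within or beside the control range.

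Glutathione peroxidases remove peroxides with glutathione as the reductant. Gpx3 (ENSMUSG00000018339; chromosome 11, 54902453 to 54910377, plus strand), the secreted form, was slightly lower, at 15.2 and 16.2 CPM in heterozygous cells against 18.55, 16.7, 17.75 and 22.15 CPM in controls. Both values lay below all controls, the nearer by less than the control SD, and the means were 15.7 ± 0.747 CPM in heterozygous cells and 18.8 ± 2.36 CPM in controls (SD, n = 2 and 4). The log2 fold change was -0.26 ± 0.19 (SE).

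Gpx1 (ENSMUSG00000063856; chromosome 9, 108338903 to 108340343, plus strand), the cytosolic form, stood at 165 and 135 CPM in heterozygous cells and at 109, 195, 116 and 148 CPM in controls. Gpx4 (ENSMUSG00000075706; chromosome 10, 80047166 to 80056439, plus strand), which reduces lipid peroxides in membranes and holds back ferroptosis, stood at 128 and 108 CPM, against 101, 169, 104 and 115 CPM in controls. For both genes the heterozygous values fell inside the control range, and control 2 was the highest library. Their log2 fold changes were 0.080 and -0.049, with standard errors of 0.26 and 0.24, and the sign of each changed under some of the alternatives given further on.

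Thioredoxin reductases return oxidised thioredoxin to its active state with NADPH. Txnrd1 (ENSMUSG00000020250; chromosome 10, 82833951 to 82897712, plus strand), the cytosolic enzyme, stood at 234 and 283 CPM in heterozygous cells, on either side of the controls at 264.5, 244, 268 and 247 CPM. Its log2 fold change was 0.016 ± 0.16 (SE). Txnrd2 (ENSMUSG00000075704; chromosome 16, 18426384 to 18479073, plus strand), the mitochondrial enzyme, stood at 16.99 and 13.65 CPM, against 11.6, 11.2, 10.1 and 15.7 CPM in controls. The groups overlapped, since control 4 lay above heterozygous library 2, and the log2 fold change was 0.33 ± 0.23 (SE).

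Sephs2 (ENSMUSG00000049091; chromosome 7, 127271879 to 127274055, minus strand) makes selenophosphate, the selenium donor for selenocysteine, and is itself a selenoprotein. It stood at 40.3 and 32.2 CPM in heterozygous cells and at 37.7, 39.0, 36.2 and 39.7 CPM in controls. The heterozygous libraries lay on either side of the controls. The control SD of Sephs2 was 1.54 CPM, and the log2 fold change was -0.072 ± 0.17 (SE).

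Sepw1, Selt and Selk encode small proteins with a selenocysteine redox centre or tail. Sepw1 (ENSMUSG00000041571; chromosome 7, 15917208 to 15922402, minus strand), an abundant cytosolic selenoprotein of muscle and brain, stood at 344 and 293 CPM in heterozygous cells and at 255, 352, 220 and 240 CPM in controls. Selk (ENSMUSG00000042682; chromosome 14, 29968308 to 29975662, plus strand), in the membrane of the endoplasmic reticulum, stood at 92.0 and 67.9 CPM, against 54.4, 94.8, 46.1 and 53.6 CPM in controls. For both genes the heterozygous libraries lay above controls 1, 3 and 4 and below control 2.

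The log2 fold changes were 0.26 for Sepw1 and 0.36 for Selk, with standard errors of 0.22 and 0.30. Between the 2 libraries without Y-linked reads the differences were -0.032 and -0.044, while between heterozygous library 2 and controls 1, 3 and 4 they were 0.30 and 0.41. Selt (ENSMUSG00000075700; chromosome 3, 58576636 to 58593133, plus strand), a thioredoxin-like protein of the endoplasmic reticulum, stood at 101.6 and 71.95 CPM in heterozygous cells and at 91.4, 139, 87.4 and 81.7 CPM in controls. Its libraries overlapped, with log2 fold change -0.20 ± 0.26 (SE). Pseudogene copies of Gpx4, Selt and Selk are named in the annotation, so reads from these genes may be split or shared.

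Over the 10 genes, 5 had a log2 fold change below 0 and 5 above, with a median of -0.016, beside 53.9% below 0 and a median of -0.029 over all 16495 tested genes. Both heterozygous libraries lay below all controls for 2 of the 10 genes, Sepp1 and Gpx3, beside 8.14% of all tested genes, and above all controls for 0 of the 10, beside 6.17%. With edgeR (quasi-likelihood test, Benjamini-Hochberg adjustment) 0 of the 10 passed, beside 0.00% of all tested genes. At an unadjusted p under 0.05 it named 1 of the 10, Sepp1, beside 5.72%. DESeq2 also named Sepp1 alone, beside 0.455%, and limma-voom named 0 of the 10 and 0 genes in all. Since Sepp1 was chosen with this contrast known, nothing is read from these counts. The log2 fold changes of the other 9 genes all lay within 0.36 of 0, as did those of 84.5% of the 9388 tested genes averaging 10 CPM or more.

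**Figure D3:**
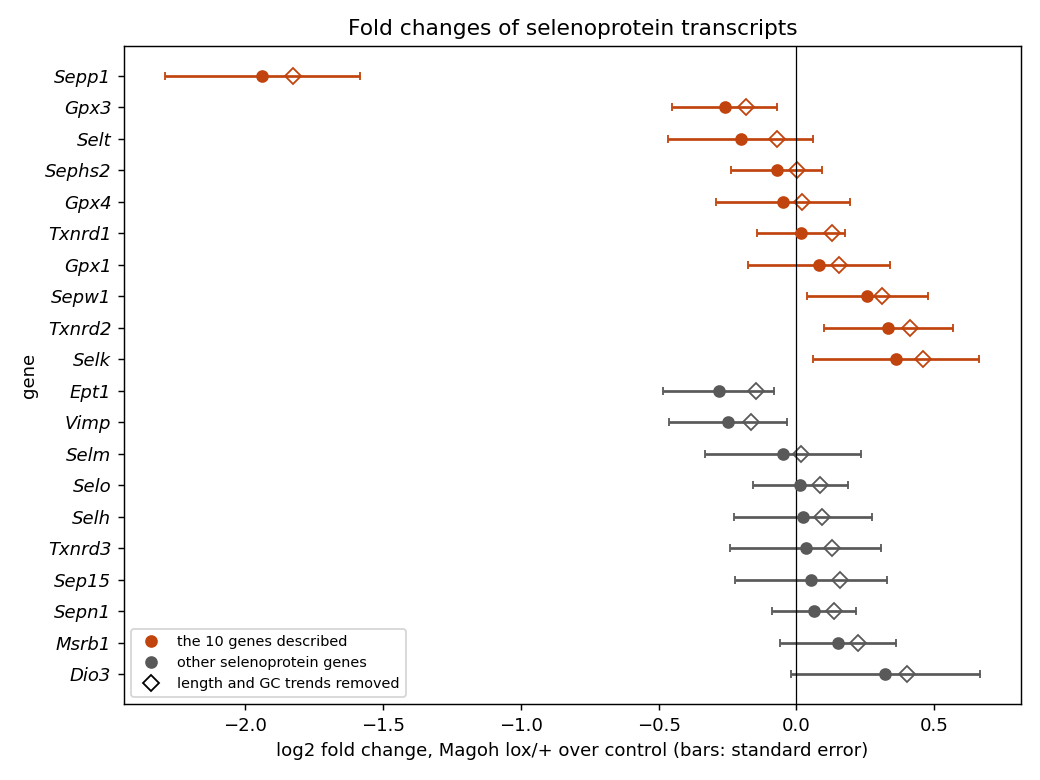
Log2 fold changes (Magoh lox/+ over control) with standard errors for the 10 genes and for 10 of the other tested selenoprotein genes, with open diamonds after removal of length and GC trends. Sepp1 at -1.94 stands away from all others drawn, which lie between -0.28 and 0.36; Dio2, with 0 reads in both heterozygous libraries, and the low Selv are not drawn.

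Fold changes on both sides of 0 were found with and without an upstream codon. Among the 7 genes whose first TGA lies more than 50 nt upstream of the last junction, the log2 fold change was -1.94 for Sepp1 and -0.26 to 0.33 for the others. Among the 3 genes without such a position it ran from -0.072 to 0.36. Taking all tested selenoprotein genes, the 12 with an upstream TGA had a median of 0.039 and the 9 without one, Dio2 aside, a median of 0.016. These are descriptions over genes, which are not replicates of the genotype.

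Several of the 10 transcripts were highest in control 2, the library in which long genes were lowest. Control 2 was the highest control for Sepw1, Gpx1, Gpx4, Selt and Selk, at 0.42 to 0.67 log2 units above the control mean. Over the 6 libraries the log2 CPM of these 5 genes ran against the long minus short difference, with Pearson's r of -0.97 to -0.83 (n = 6 libraries that share this trend, a description). The 5 were named for their level in control 2, the library at the extreme of this difference, so r in part repeats that choice. For the other genes r was 0.66 in Txnrd1, 0.47 in Gpx3, 0.32 in Sepp1, -0.19 in Txnrd2 and -0.43 in Sephs2. Selk and Sepw1 were the most alike pair of the 10, with r of 0.99, followed by Gpx1 and Gpx4, with r of 0.94. Sepp1 was most like Gpx3, with r of 0.81. The part of the length difference in the levels of these genes was not tested, and control 2 also lacks Y-linked reads.

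**Figure D4:**
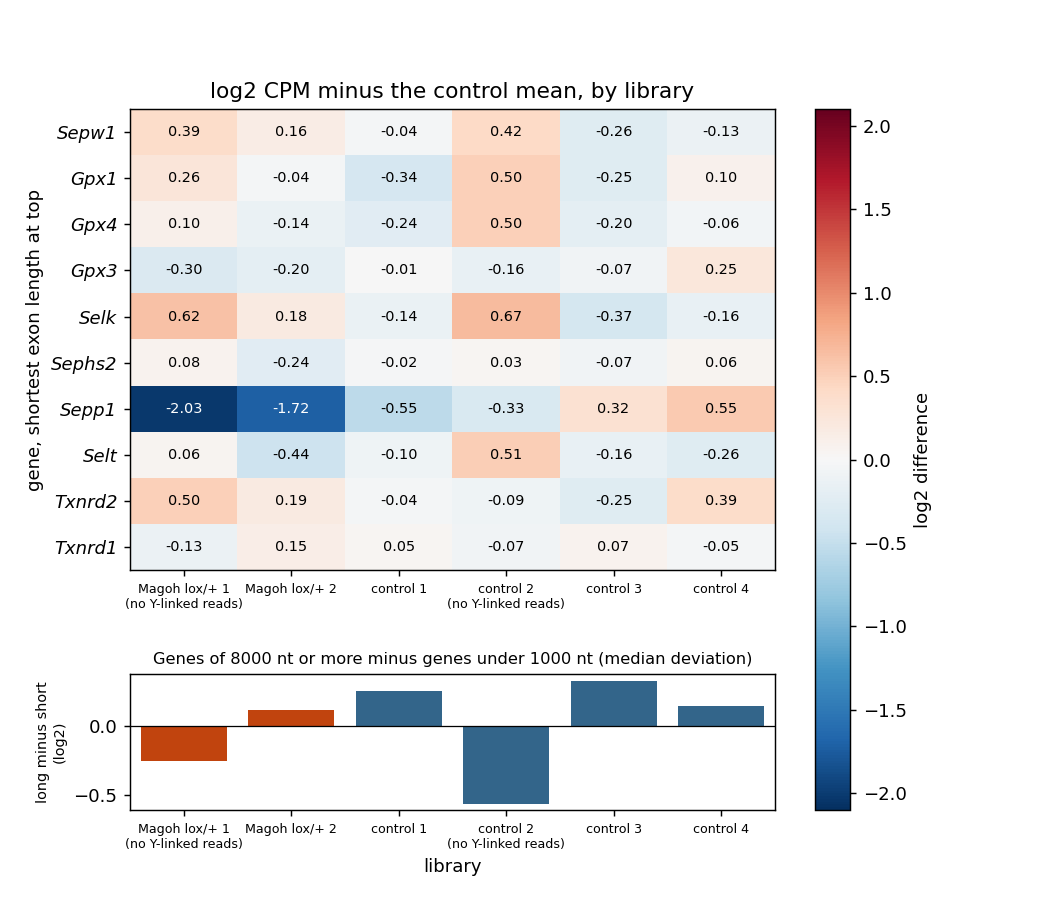
Upper panel, log2 CPM of each gene minus its control mean, for the 2 Magoh lox/+ and 4 control libraries, shortest gene at the top; lower panel, the long minus short difference of each library in log2 units. Sepp1 is at -2.03 and -1.72 in the heterozygous libraries, and control 2, at -0.56 in the lower panel, holds the highest control values of Sepw1, Gpx1, Gpx4, Selk and Selt.

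Per length of the exon union, Sepw1 was the most abundant of the 10 transcripts and Txnrd2 the least. Levels were set per kilobase of exon (RPKM). The length is the union of annotated exons, which is longer than the expressed mRNA where isoforms differ. For Txnrd1 and Txnrd2 the union was 7086 and 4401 nt, against 3325 and 1905 nt in the principal annotated transcript. For Sepp1 it was 2842 against 2013 nt. The places of these genes beside close neighbours, and that of Txnrd2 as the least in heterozygous cells, therefore depend on the length used. In heterozygous cells Sepw1 stood at 433 ± 49.6 RPKM, Gpx1 at 104 ± 15.01, Gpx4 at 68.4 ± 8.14, Selk at 42.3 ± 9.02 and Txnrd1 at 36.5 ± 4.88 (SD, n = 2). Below them came Selt at 25.3 ± 6.10 RPKM, Sephs2 at 16.7 ± 2.63, Gpx3 at 8.65 ± 0.412, Sepp1 at 5.36 ± 0.817 and Txnrd2 at 3.48 ± 0.537.

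The control order was Sepw1 at 362 ± 79.8 RPKM, Gpx1 at 98.4 ± 27.1, Gpx4 at 70.8 ± 18.4, Txnrd1 at 36.1 ± 1.70 and Selk at 32.9 ± 11.7 (SD, n = 4). It went on with Selt at 29.1 ± 7.68 RPKM, Sepp1 at 20.5 ± 7.26, Sephs2 at 17.5 ± 0.708, Gpx3 at 10.4 ± 1.302 and Txnrd2 at 2.76 ± 0.555. By this measure Sepp1 was 9th of the 10 in heterozygous cells and 7th in controls. Neighbours in the control order whose libraries overlapped were Gpx1 and Gpx4, Txnrd1 and Selk, Selk and Selt, Selt and Sepp1, and Sepp1 and Sephs2. In heterozygous cells only Selk and Txnrd1 overlapped, with 2 libraries each. Sepp1 made up 0.596 and 0.869% of the summed RPKM of the 10 genes in heterozygous libraries, against 1.77 to 4.45% in controls.

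Selenoprotein P is taken up by receptors of the low-density lipoprotein receptor family. Lrp2 (megalin; ENSMUSG00000027070; chromosome 2, 69424340 to 69586065, minus strand) was lower in heterozygous cells, at 68.9 CPM in each library, against 164, 110, 289 and 166 CPM in controls. Both libraries lay below all controls, as in 8.14% of all tested genes, with log2 fold change -1.40 ± 0.37 (SE). Lrp2 has 16701 nt of exon, and with length and GC trends taken out per library the value was -1.15 ± 0.23 (SE). It did not pass edgeR (adjusted p = 0.793). DESeq2 called it (adjusted p = 0.0359), 1 of the 3 receptor genes, beside 0.455% of all tested genes. Between the 2 libraries without Y-linked reads the log2 difference was -0.67, and among the other 4 libraries it was -1.53.

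Lrp8, which takes up selenoprotein P in brain, stood at 51.8 and 76.3 CPM in heterozygous cells and at 74.4, 41.9, 75.8 and 59.8 CPM in controls. Its groups overlapped, with log2 fold change 0.024 ± 0.28 (SE). Lrp1, a broad endocytic receptor of the same family, stood at 279 and 348 CPM, against 471, 238, 478 and 499 CPM in controls. Its groups overlapped too, with log2 fold change -0.43 ± 0.31 (SE), and control 2 was the lowest library for Lrp8 and Lrp1.

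**Figure D5:**
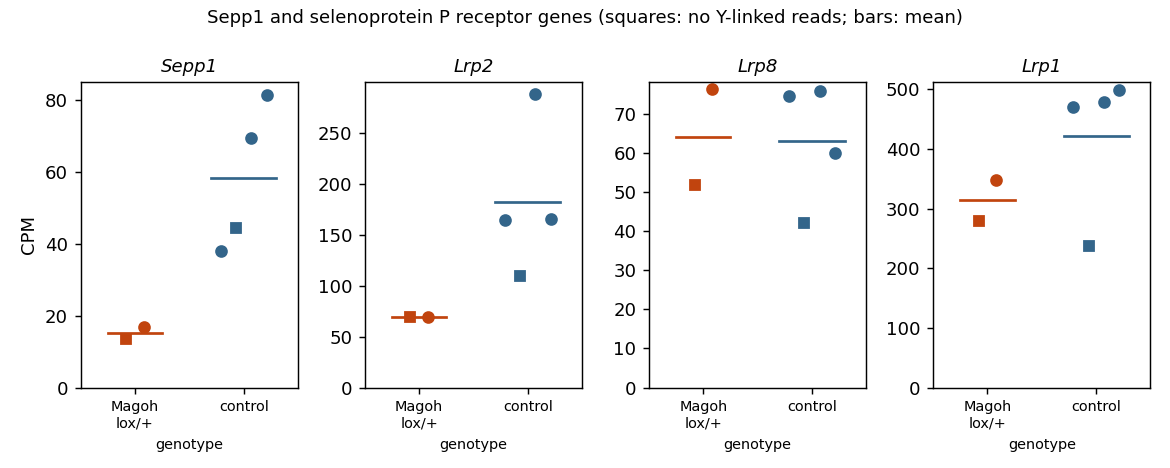
CPM of Sepp1 and of the receptor genes Lrp2, Lrp8 and Lrp1 by genotype, 2 Magoh lox/+ libraries left and 4 control libraries right, with the mean as a bar and squares for libraries without Y-linked reads. Sepp1 and Lrp2 (68.9 CPM in both heterozygous libraries) do not overlap between genotypes, while Lrp8 and Lrp1 do.

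The genes whose levels followed Sepp1 most closely over the 6 libraries were named by Pearson's r of log2 CPM among 11906 tested genes averaging 1 CPM or more. They were Ephx2, a soluble epoxide hydrolase (r of 0.992), Kcnab1, a potassium channel subunit (0.99), Spry2, a feedback inhibitor of growth factor signalling (0.99), Map4k1, a kinase (0.989), and Gja1 (0.987). Gja1, the gap junction protein connexin 43 of radial glia, stood at 73.7 and 86.1 CPM in heterozygous cells, against 140, 140, 180 and 241 CPM in controls. Spry2 stood at 13.8 and 14.2 CPM, against 17.9 to 22.6 CPM in controls. These 6 libraries include the 2 groups, whose difference enters r, and the values carry no test.

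The other 14 selenoprotein genes were read in the same way. Of 12 that were tested, 4 had a log2 fold change below 0 and 8 above, with a median of 0.030. With edgeR 0 of the 12 passed, beside 0.00% of all tested genes. Only 1, Dio2, had an unadjusted edgeR p under 0.05, beside 5.72%, and it was also called by DESeq2, beside 0.455%. Both heterozygous libraries lay below all controls for 2 of the 12, beside 8.14% of all tested genes. These were Dio2 and Ept1 (now Selenoi), an ethanolamine phosphotransferase. Gpx2 and Dio1 were under the count filter, with at most 1 read in all.

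Dio2, the deiodinase that activates thyroid hormone, had 0 counts in both heterozygous libraries, against 17, 22, 22 and 52 counts in controls. The groups did not overlap, and with a floor of 3 counts over the 2 heterozygous libraries together the level was at least 21.1-fold lower (counting error only). Low genes were more often at 0 in both heterozygous libraries: of genes averaging 20 to 40 counts in the other libraries, 11.1 and 10.6% had 0 counts in them, against 0.429 to 3.93% in controls. The part of that difference in Dio2 was not tested. Ept1 stood at 58.4 and 56.6 CPM in heterozygous cells and at 63.6, 90.4, 61.1 and 64.8 CPM in controls, log2 fold change -0.28 ± 0.20 (SE). Dio3, the deiodinase that inactivates thyroid hormone, stood at 6.27 and 4.90 CPM, against 4.798, 4.65, 2.65 and 5.77 CPM in controls, with overlapping groups.

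Genes of the selenocysteine machinery showed 5 of 10 log2 fold changes below 0 and 5 above, with a median of 0.0023. With edgeR, DESeq2 and limma-voom 0 of the 10 passed, beside 0.00, 0.455 and 0.00% of all tested genes. An unadjusted edgeR p under 0.05 was found for 0 of the 10, beside 5.72%. Secisbp2, which binds the hairpin that recodes the codon, stood at 12.2 and 15.6 CPM in heterozygous cells and at 21.4, 10.7, 22.5 and 16.4 CPM in controls. Eefsec, the elongation factor that brings the selenocysteine tRNA, stood at 34.6 and 29.6 CPM, against 35.3, 24.5, 31.96 and 36.6 CPM. In both genes the groups overlapped and control 2 was the lowest library.

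Sepsecs and Pstk, which make selenocysteine on its tRNA, had log2 fold changes of -0.14 and 0.034, with standard errors of 0.24 and 0.27. Sephs1, the paralog of Sephs2 without selenocysteine, stood at 172 and 174 CPM in heterozygous cells and at 175 to 181 CPM in controls, log2 fold change -0.034 ± 0.14 (SE). Both heterozygous libraries of Sephs1 lay below all controls, as in 8.14% of all tested genes, with a control range of 175 to 181 CPM.

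Among 29 tested redox genes without selenocysteine, 15 had a log2 fold change below 0 and 14 above, with a median of -0.021. With edgeR, DESeq2 and limma-voom 0 of the 29 passed, beside 0.00, 0.455 and 0.00% of all tested genes. An unadjusted edgeR p under 0.05 was found for 0 of the 29, beside 5.72%. Both heterozygous libraries lay below all controls for 3 of the 29 and above them for 2, beside 8.14 and 6.17% of all tested genes. The 4 genes named next, picked by p, are among these. The 4 with the smallest unadjusted p were Slc7a11, the cystine importer of glutathione synthesis, at 2.66 and 0.915 CPM in heterozygous cells against 2.76 to 5.62 CPM in controls, Gpx8, Msra and Gsr. Gpx8, a peroxidase of the endoplasmic reticulum with cysteine in place of selenocysteine, stood at 17.8 and 16.2 CPM, against 18.4 to 33.7 CPM. Msra, a methionine sulphoxide reductase, stood at 27.9 and 27.4 CPM, against 18.8 to 25.2 CPM. Gsr, glutathione reductase, stood at 51.0 and 47.3 CPM, against 52.2 to 69.5 CPM in controls.

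Markers of other cell types varied between libraries, and their part in the levels of the 10 genes was not tested. The summed level of 12 macrophage and microglial markers was 16.4 and 2.05 CPM in heterozygous libraries 1 and 2, against 5.66, 6.15, 7.07 and 98.5 CPM in controls 1 to 4. Control 4, at 98.5 CPM, also had the highest Sepp1. Control 3 had the next highest Sepp1 with 7.07 CPM of these markers. Csf1r, the most abundant of them, stood at 3.11 and 0 CPM in heterozygous libraries 1 and 2, against 0.529 to 28.2 CPM in controls. The sum of 12 erythroid markers, led by embryonic globins, was 378 and 0.753 CPM in heterozygous cells and 32.5 to 139 CPM in controls.

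The sums of 10 choroid plexus and roof plate markers were 175 and 97.2 CPM in heterozygous cells and 186 to 245 CPM in controls, and those of 12 surface ectoderm markers were 15.8 and 12.999 CPM, against 16.8 to 23.8 CPM. Both sums lay below all controls in both heterozygous libraries, but most single markers did not. Both heterozygous libraries were below all controls for 3 of 9 tested choroid plexus and roof plate genes and above them for 1, Ttr. They were below for 2 of 11 tested surface ectoderm genes and above for 0. Over all tested genes the shares were 8.14% below and 6.17% above. Otx2, the most abundant of the choroid plexus and roof plate list, stood at 102 and 73.6 CPM in heterozygous cells, against 111 to 160 CPM in controls. Its log2 fold change was -0.66 ± 0.23 (SE). Endothelial markers summed to 13.3 and 9.21 CPM in heterozygous cells and 7.82 to 29.2 CPM in controls, and mural and mesenchymal markers to 208 and 78.15 CPM, against 124 to 224 CPM. MGE markers summed to 1701 and 2958 CPM in heterozygous cells and to 1203.5 to 2225 CPM in controls. Over the 6 libraries, Pearson's r of the log2 sum with log2 CPM of Sepp1 was 0.82 for surface ectoderm and 0.77 for choroid plexus and roof plate. It was 0.58 for endothelial, 0.46 for macrophage and microglial, 0.38 for mural and mesenchymal, 0.22 for erythroid and -0.46 for MGE markers. The group difference enters each r, and none was tested.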

How the data were processed

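Reads were handled with Trim Galore, STAR and HTSeq on build mm10, per the submitters' processing notes; versions, annotation and strandedness are not stated there. The authors deposited raw counts per Ensembl gene (38561 genes, 0 rows naming no gene, 0 columns of no sample); the deposited normalized table was not used. Each column was tied to its sample through the code in the sample title. Genes were kept by filterByExpr, scaled by TMM and tested with edgeR 4.0.16 (R 4.3.3; glmQLFit, robust; Benjamini-Hochberg adjustment, threshold 0.05), with DESeq2 1.42.0 and limma 3.58.1 as alternatives, and the scripts were tested on simulated data. On those simulated data edgeR made 4 false calls and DESeq2 44 over 16495 genes. They recovered 13 and 40% of the simulated 2-fold changes, and 78 and 91% of the 4-fold changes. A standard error is the absolute log2 fold change over the root of F. With 2 against 4 libraries an exact permutation test cannot give a p below 0.0667, so none is given. GENCODE M21 (GRCm38, the assembly behind mm10) matched 36639 gene IDs and gave coordinates, exon lengths and codon positions, taken from the principal transcript. The TGA distance uses the last exon junction and a limit of 50 nt. A count of 0 allows up to 3 counts, counting error only. Length trends use log2(CPM + 0.5), likeness log2(CPM + 0.01). Members, lists and named genes (all 10 members; all tested genes of the selenoprotein, machinery and receptor lists; the 4 redox genes with the smallest p; the 5 genes most like Sepp1 without clone names) were chosen with earlier results of these data known.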

Additional observations from a re-analysis of the deposited data

Results flagged for a closer look

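Within the 4 controls, 1 library stood apart from the other 3 (the gap to its nearest neighbour filled most of the group's range, Dixon's 95% criterion) for 10 of 37 selenium-related and label check genes. Chance flags about 1 in 20 groups, but the share over all tested genes was not computed, so the count is no result about these genes. Control 2, whose long minus short difference was -0.56, was the library in 9 of the 10. It was the highest control for Selt (139 CPM, others 81.7 to 91.4), Selk (94.8 CPM, others 46.1 to 54.4), Selh, now Selenoh (149 CPM, others 91.1 to 95.5), and Ept1 (90.4 CPM, others 61.1 to 64.8). It was also the highest for Pstk (14.3 CPM, others 9.06 to 9.62), Trnau1ap (40.6 CPM, others 24.7 to 27.0), Sephs1 (181 CPM, others 175 to 176) and Rpl30 (436 CPM, others 218 to 253). It was the lowest for Lrp1 (238 CPM, others 471 to 499). Control 3 was the highest for Sepsecs (11.6 CPM, others 9.04 to 9.32). Sepp1 met no such criterion.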

How the results depend on the processing

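Over 16 alternatives, of which leaving out both libraries without Y-linked reads was chosen after seeing the data, Sepp1 stayed below 0, from -2.11 to -1.17, and from -2.11 to -1.73 with a library left out. Gpx3 also stayed below 0, and Sepw1, Txnrd2 and Selk above it. The number of genes called was 0 except with DESeq2 (75) and with a replicate block on the numeric part of the sample code (11). The labels do not say what that number marks, and the genotypes share 1 of them, so the contrast rests on heterozygous library 2 and control 1, the lowest control for Sepp1; there Sepp1 was at -1.17 and Gpx4 at 0.10. Among the 10 genes, 3 were below 0 after removal of length and GC trends, which moved the median of all genes by 0.11; relative to that median 5 were lower, as without it. With a library left out the number ran from 3 (without heterozygous library 2, or without control 2) to 6, and the cause was not tested. Signs that changed were those of small values. With a library left out Gpx1 ran from -0.063 to 0.28, Gpx4 from -0.16 to 0.16, Txnrd1 from -0.13 to 0.16, Sephs2 from -0.23 to 0.076 and Selt from -0.46 to 0.021. Gpx1 was at -0.023 with Y-linked reads as a covariate. After removal of the length and GC trends Gpx4 was at 0.021 and Sephs2 at 0.0036. Without both libraries lacking Y-linked reads Gpx4 was at 0.031.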
